A study of Paeonia lactiflora with 8 samples.

Results

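GLO (comp18082_c0), FBP1 (comp12071_c0) and DEFA (comp20901_c0) are the members of a set of 3 petal and stamen identity genes, chosen by their IDs out of the 30177 assembled genes of a herbaceous peony (Paeonia lactiflora) transcriptome. The table gives each of them the annotation of a plant MADS-box transcription factor and a symbol taken from another plant. Poly(A) RNA was sequenced from 4 tissues with 2 biological replicates each, 8 libraries in all. Root, leaf and flower were taken at the blossom period, and fruit was taken at the young fruit period, so wherever fruit is compared, tissue and sampling period cannot be told apart. The labels give no genotype, age or treatment, do not say which organs the flower sample held and do not say whether plants were pooled.

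In flowering plants, B-class MADS proteins act in the petal and stamen whorls of the flower, where they give petals and, together with C-class proteins, stamens. They fall into 2 lineages. GLOBOSA (GLO) of snapdragon, PISTILLATA of Arabidopsis and FBP1 of petunia belong to one, and DEFICIENS (here DEFA) of snapdragon and APETALA3 of Arabidopsis belong to the other. In snapdragon and Arabidopsis a protein of each lineage pairs with one of the other to bind DNA, and SEPALLATA-type MADS proteins join them in larger complexes. The table holds 1 further ID with the symbol DEFA, comp24526_c0, which is outside the set and is given beside it.

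Total estimated counts ran from 30399492 to 49421130 per library. Flower replicate 2 stood apart, because the 3 IDs with the symbol TAR1-A took 41.4% of its counts, against 1.77% to 18.9% of the other libraries. Levels per length are given as the authors' TPM, a unit that sets each library to the same total after dividing by length, and levels compared within a gene as CPM, counts set to a common library total and scaled by edgeR's TMM method. Of the marker lists, 20 IDs with Rubisco small subunit, CAB or LHCB symbols had 133700 and 103500 TPM together in the leaf libraries and 831 and 1442 in the flower libraries. The 14 root-list IDs, with the symbols AGL12, CASP, PHT1 and NRT2, did not set root apart, with 55.4 and 235 TPM in root and 248 and 185 in leaf, although one of them, the root MADS gene AGL12 (comp3886_c0), had 16.6 and 32.3 TPM in root and at most 3.49 elsewhere. The stamen and pollen list matched 5 SF3 IDs, named after pollen LIM proteins, whose summed level did not set flower apart, with 184 and 216 TPM in flower and 161 and 231 in leaf. Of these, comp14862_c0 (32.6 and 22.0 TPM) and comp12409_c0 (17.3 and 26.6) were at 0 outside flower, and the other 3 were read in every library. The fruit list matched the carpel and ovule identity genes AG1 and AGL11, which summed to 70.9 and 62.0 TPM in fruit and were at 0 in both flower libraries.

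GLO was the most abundant of the 3 genes, and nearly all of its RNA was in flower. It had 631 and 575 TPM in flower replicates 1 and 2, 0.02 and 0.07 TPM in root, 0 and 0 in leaf, and 0 and 0.04 in fruit. Flower did not overlap the other tissues, which is a description only, since the share of all genes without overlap was not counted. The 6 libraries outside flower held 6 estimated counts of GLO in all (4 in root, 2 in fruit) against 30568 and 13515 in the flower libraries. On the CPM scale its level was 885 ± 172 in flower and 0.0357 ± 0.0219 in root (SD, n = 2 each), a log2 fold change of 14.45 ± 1.16 (SE, edgeR adjusted p = 0.00365). To pass, a gene needed an edgeR p under 0.05 after Benjamini-Hochberg adjustment across the 27939 genes tested, and a log2 fold change of 1 or more in size. In flower against root, 20.6% of the genes tested passed, 11.2% as higher in flower and 9.39% as lower. The share of passing genes that were higher depended on the scale, at 54.3% here and 23.6% on log2(TPM + 1), where the median of all genes moved from -0.17 to -0.79. In edgeR with TMM replaced by total counts without TAR1-A and the 20 highest IDs, the share was 27.9% and the median -0.88. Against leaf, where GLO had no count, flower was at least 26963-fold higher, taking 3 counts over the leaf libraries as the floor (edgeR adjusted p = 0.0028, with 19.3% of genes tested passing and 9.32% higher in flower). Against fruit, where it had 2 counts, the ratio was 50228, with an exact 95% counting interval from 13904 to 414764 (edgeR adjusted p = 0.0048, with 14.7% of genes tested passing and 8.06% higher in flower). Without fruit replicate 2, which held both of those counts, the fruit libraries had none, and the fitted log2 fold change, then no bound, moved from 15.28 to 18.21, while it was 14.02 without fruit replicate 1. Without root replicate 2 the value against root was 15.17. Against the mean of root, leaf and fruit, 22.8% of genes tested passed, 13.6% higher and 9.22% lower in flower. GLO, FBP1 and DEFA were among the higher (edgeR adjusted p = 0.000469, 0.000862 and 0.00101). For GLO and FBP1, unlike DEFA, a difference from flower was built into their being tested, as given below. Intervals and floors cover counting error only. In bulk tissue, fewer cells of a type and less RNA per cell cannot be told apart.

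FBP1, the other gene of the GLO lineage, was read in flower alone. It had 289 and 448 TPM in flower replicates 1 and 2, from 5184 and 3874 estimated counts, and no count in any of the 6 other libraries. Flower was therefore at least 7012-fold higher than root (edgeR adjusted p = 0.00396), at least 5934-fold higher than leaf (edgeR adjusted p = 0.00333) and at least 7112-fold higher than fruit (edgeR adjusted p = 0.00566), again against 3 counts over a tissue. Of the 1304 IDs with a mean of at least 100 TPM in flower, FBP1 was the sole one without a count outside flower, whereas 381 of all 30177 IDs (1.26%) had no count there. No other ID with a mean flower TPM as high as that of GLO had a maximum outside flower as low as the 0.07 TPM of GLO. These limits are the values of GLO itself. Counted in the same way, each with its own values and itself included, 30 IDs matched DEFA and 14 matched comp24526_c0. GLO and FBP1 came past the filter on low counts through the flower libraries only, so that a difference between flower and the rest was built into their being tested. Both calls rest on the same flower libraries in all 3 comparisons.

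**Figure D1:**
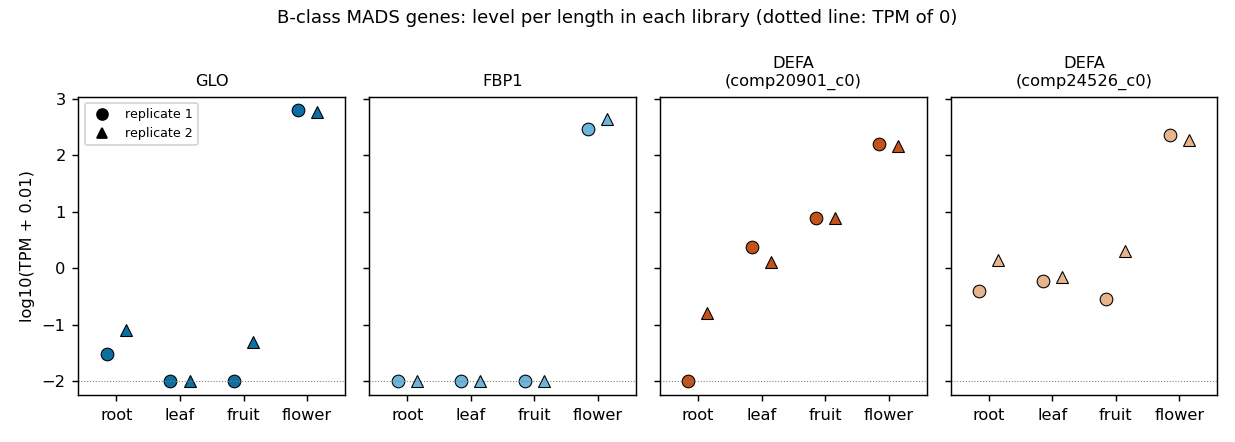
Level per length of the B-class genes in each library, as log10(TPM + 0.01), in root, leaf, fruit and flower; circles are replicate 1, triangles replicate 2, and the dotted line is a TPM of 0. GLO and FBP1 lie at or near 0 in all libraries outside flower, whereas DEFA (comp20901_c0) steps down from about 150 TPM in flower to about 8 in fruit, about 2 in leaf and under 1 in root.

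DEFA was highest in flower too, but it had a graded level in the other tissues. It had 159 and 144 TPM in flower, 7.70 and 7.91 in fruit, 2.42 and 1.29 in leaf, and 0 and 0.15 in root. These pairs of libraries did not overlap between tissues. With 2 libraries a tissue that is a description only, and the share of all genes without overlap was not counted. DEFA was the 1 member of the set that passed the filter on low counts without the flower libraries. On the CPM scale its level was 150 ± 38.0 in flower, 5.30 ± 2.53 in fruit, 1.49 ± 0.978 in leaf and 0.0513 ± 0.0725 in root (SD, n = 2 each). Flower was higher than root by a log2 fold change of 11.37 ± 1.25 (SE, edgeR adjusted p = 0.00432). The corresponding value was 6.65 ± 0.99 against leaf (edgeR adjusted p = 0.00716) and 4.82 ± 0.91 against fruit (edgeR adjusted p = 0.0198). Flower thus held 94.0% of the summed mean TPM of DEFA over the 4 tissues, against 99.99% for GLO and all of it for FBP1.

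Among the tissues outside flower, the neighbours fruit and leaf did not overlap in TPM for DEFA, but their difference did not pass the test (log2 fold change 1.82 ± 0.81 for fruit against leaf, edgeR adjusted p = 0.216, with 9.64% of genes tested passing, 3.59% higher and 6.05% lower in fruit). DEFA was higher in fruit than in root by 6.54 ± 1.08 (edgeR adjusted p = 0.039, with 2.06% of genes tested passing, 1.24% higher and 0.816% lower in fruit). It was lower in root than in leaf, at -4.72 ± 1.03 (edgeR adjusted p = 0.0303, with 12.4% of genes tested passing, 4.45% higher and 7.92% lower in root). All 6 root counts of DEFA were in root replicate 2, and without that library no count was left in root and the fitted log2 fold changes, then no bounds, moved to 15.56 for flower, 10.82 for fruit and -9.02 for root against leaf. Without root replicate 1 flower against root was 10.47 (edgeR adjusted p = 0.0152), and without leaf replicate 1 flower against leaf was 7.53 (0.0468). The call of fruit over root was lost without root replicate 1 (edgeR adjusted p = 0.104), leaf replicate 1 (0.0804), leaf replicate 2 (0.0798), flower replicate 1 (0.088), flower replicate 2 (0.0898), fruit replicate 1 (0.0895) or fruit replicate 2 (0.108). The call of root under leaf was lost without root replicate 1 (edgeR adjusted p = 0.0767), leaf replicate 1 (0.143), leaf replicate 2 (0.0599), flower replicate 1 (0.0655) or flower replicate 2 (0.066). The call of flower over fruit was lost without flower replicate 1 (0.0905), flower replicate 2 (0.068), fruit replicate 1 (0.107) or fruit replicate 2 (0.0883), and that of flower over leaf without leaf replicate 2 (0.0692), with log2 fold changes of 4.36 to 5.26 and 5.98 in those fits.

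The scale changed calls of DEFA outside flower. Its ID pools 2 assembled transcripts, and dividing its counts by its RPKM gave an effective length that ran from 487 bases in fruit replicate 1 to 678 in fruit replicate 2. The 815 bases so obtained in root replicate 2 rest on 6 counts. At such counts the division is imprecise, since for GLO it gave 751 and 835 bases from 1 and 2 counts, against 824 in flower. Its fruit replicates were close in TPM (7.70 and 7.91) but apart in CPM (3.51 and 7.09). The TMM factors of these libraries differed as well, at 1.39 and 1.03, and the part of length and of scaling in that gap was not tested. On log2(TPM + 1) with limma, fruit was above leaf by 1.65 (limma adjusted p = 0.0338), and the call of root under leaf was lost (limma adjusted p = 0.0509). GLO is a single transcript of 1023 bases, whereas FBP1 pools 2 transcripts, has a length of 506 bases and had an implied effective length of 305 and 303 bases in the flower libraries.

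The second DEFA ID, comp24526_c0, had 98.7% of its summed mean TPM in flower and no graded level outside it. It had 227 and 186 TPM in flower, 0.28 and 2.05 in fruit, 0.58 and 0.68 in leaf, and 0.38 and 1.41 in root. Flower lay above each other tissue, and the other 3 overlapped, again as a description only. Its log2 fold change was 8.82 ± 1.28 for flower against root, 8.88 ± 1.29 against leaf and 7.98 ± 1.24 against fruit (edgeR adjusted p = 0.0079, 0.00657 and 0.012). The call against leaf was lost without leaf replicate 1 (edgeR adjusted p = 0.0623) or leaf replicate 2 (0.0688), and that against fruit without flower replicate 1 (0.0577) or flower replicate 2 (0.0508). None of the differences between the tissues outside flower passed (edgeR adjusted p = 0.727, 0.636 and 0.994). In fruit, the TPM of DEFA was 27.5 and 3.86 times that of comp24526_c0, and in leaf it was 4.17 and 1.90 times, while in flower comp24526_c0 was 1.43 and 1.29 times DEFA. The difference in pattern between the DEFA IDs was not tested, and how the counting assigned reads shared by related IDs is not given in the sources used here.

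**Figure D2:**
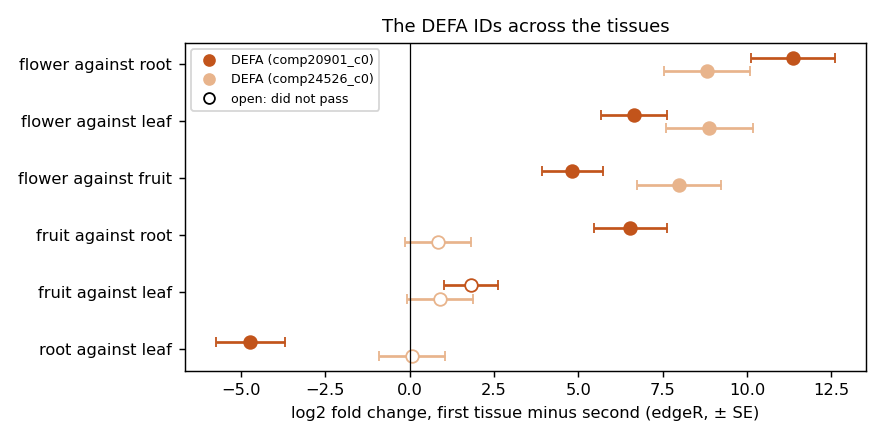
Log2 fold changes (first tissue minus second, edgeR, bars are SE) of DEFA (comp20901_c0, dark) and of comp24526_c0 (light), with open circles where the test did not pass. Both IDs are far to the right of 0 in the flower comparisons, and DEFA alone is marked as passing for fruit against root (6.54) and root against leaf (-4.72).

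Within flower, the genes of the GLO lineage were above those of the DEFA lineage per length. GLO ranked 191st and 214th of all IDs by TPM in flower replicates 1 and 2, FBP1 486th and 276th, and DEFA 870th and 940th. The ratio of GLO to DEFA was close in both libraries, at 3.97 and 3.99. That of FBP1 to DEFA was 1.82 and 3.11. GLO and FBP1 summed to 921 and 1023 TPM, and DEFA with comp24526_c0 summed to 386 and 330, a ratio of 2.38 and 3.10 between the lineages. Each library gives its own ratio, and with 2 libraries no test of these ratios was made. By TPM, the order GLO, FBP1, comp24526_c0 and DEFA held in both flower libraries. The place of FBP1 depended on dividing by effective length. In the flower libraries that implied length was 305 and 303 bases for FBP1. It was 824 for GLO, 673 for comp24526_c0, and 573 and 529 for DEFA. In estimated counts FBP1 (5184) was below comp24526_c0 (8982) and DEFA (5365) in flower replicate 1. In flower replicate 2 it (3874) was above both (3562 and 2177).

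**Figure D3:**
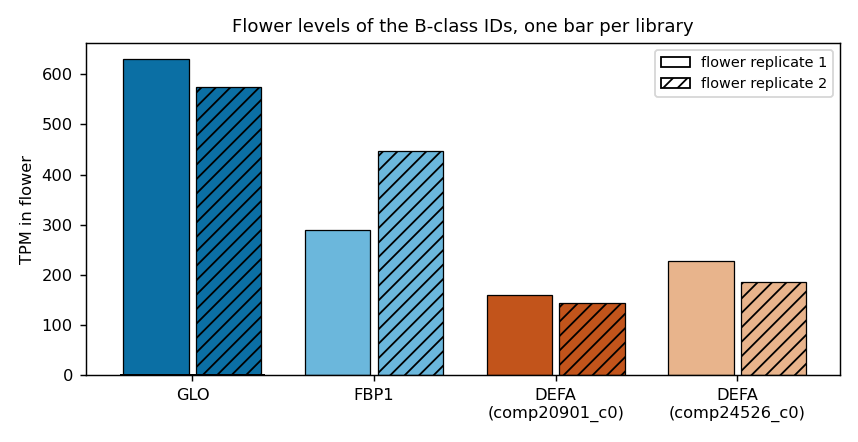
TPM of the B-class IDs in the 2 flower libraries, one bar per library, plain for replicate 1 and hatched for replicate 2. GLO is highest in both libraries, and FBP1 is the ID that is higher in replicate 2 (448) than in replicate 1 (289).

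The MADS list held 25 IDs, all tested, of which 22 are outside the set. Of these 22, flower was above root in 7 and below it in 7, and 8 did not pass (median log2 fold change 0.88, or 1.10 with genes at 0 in one tissue set to their bound, beside -0.17 over all genes tested, of which 11.2% were higher and 9.39% lower in flower). Against leaf, 7 were higher in flower, 3 were lower and 12 did not pass (median 0.97, at bound 1.72, beside -0.13 and 9.32% higher and 10% lower over all genes). Against fruit, 4 were higher in flower, 5 were lower and 13 did not pass (median -0.17, at bound -0.06, beside -0.16 and 8.06% higher and 6.65% lower over all genes). These counts rest on few libraries. Those against fruit fell from 9 to 2 without flower replicate 1, to 5 without leaf replicate 2, and to 3 each without flower replicate 2, fruit replicate 1 or fruit replicate 2. Those against root fell from 14 to 9 without root replicate 1 and to 7 without flower replicate 1, and those against leaf from 10 to 5 without leaf replicate 2.

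Genes named after partners of B-class proteins were read in the same flower libraries. FBP2 (comp5191_c0), named after a SEPALLATA-type gene of petunia, had 148 and 148 TPM in flower, 51.0 and 35.3 in fruit, 0 and 0.25 in leaf, and 0.12 and 0.49 in root. It was higher in flower than in leaf (edgeR adjusted p = 0.0049), while its log2 fold change of 2.48 ± 0.93 against fruit did not pass (edgeR adjusted p = 0.118). That difference passed with DESeq2 (adjusted p = 0.0184), with limma on log2(TPM + 1) (0.0233) and with edgeR on flower and fruit alone (0.0166). A SEP1 ID of the same type (comp5568_c0) had 14.8 and 21.6 TPM in flower and 6.28 and 4.24 in fruit, and it was higher in flower than in fruit by a log2 fold change of 2.46 ± 0.39 (edgeR adjusted p = 0.0167). This call was lost on log2(TPM + 0.1) with limma (adjusted p = 0.123) and in edgeR without leaf replicate 2 (0.0506), flower replicate 1 (0.069), flower replicate 2 (0.0816), fruit replicate 1 (0.0856) or fruit replicate 2 (0.1). The other SEP1 ID, comp21161_c0, was lower in flower than in fruit by TPM, with 8.73 and 2.82 in flower and 21.2 and 11.5 in fruit. That difference did not pass (log2 fold change -0.70 ± 0.99, edgeR adjusted p = 0.665). AP1 (comp14228_c0), known in Arabidopsis for specifying floral meristems and outer whorls, had 39.3 and 34.2 TPM in flower and at most 1.89 elsewhere, and it was higher in flower than in leaf and fruit (edgeR adjusted p = 0.0203 and 0.0175). The AP1 call against leaf was lost without leaf replicate 1 (edgeR adjusted p = 0.0551), flower replicate 1 (0.0914) or flower replicate 2 (0.0688). The one against fruit was lost without flower replicate 1 (0.0812), flower replicate 2 (0.068), fruit replicate 1 (0.0772) or fruit replicate 2 (0.101). Per length, the flower levels of FBP2 were close to those of DEFA, and those of AP1 were lower.

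C- and D-class genes, which in other plants give stamen, carpel and ovule identity, were at or near 0 in flower. AG1 (comp18001_c0) had no count in either flower library, 27.4 and 23.3 TPM in fruit, 7.23 and 4.98 in leaf, and 0.18 and 0.23 in root. AGL11 (comp4517_c0), an ovule identity gene in Arabidopsis, had no count in flower and 43.5 and 38.8 TPM in fruit. AGL1 (comp12596_c0), a fruit patterning gene in Arabidopsis, had 0.34 and 0.28 TPM in flower and 32.4 and 32.9 in fruit. All 3 were lower in flower than in fruit (edgeR adjusted p = 0.00459, 0.0469 and 0.00631), and AG1 was lower in flower than in leaf too (edgeR adjusted p = 0.00278). The flower libraries thus held B-class RNA at 144 TPM or more per ID beside C- and D-class RNA at 0.34 TPM or less per ID. Of these calls, that of AGL11 was lost in 6 of 17 alternative fits (adjusted p up to 0.17), among them those without flower replicate 1, flower replicate 2, fruit replicate 1 or fruit replicate 2, and those of AG1 and AGL1 against fruit held in all 17. AGL11 and AGL1 had at most 1.0 and 0.34 TPM outside fruit. Whether they would pass the filter on low counts without the fruit libraries was not checked, so a difference from fruit may be built in. Whether the sampled flowers contained stamens and carpels at the stage in which these genes are read was not tested.

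Among the remaining MADS genes, both IDs with the highest mean level had their highest TPM outside flower. SOC1 (comp25395_c0), a flowering-time integrator, had 47.4 and 92.3 TPM in root, 71.7 and 53.7 in leaf, against 3.78 and 3.16 for flower and 2.63 and 1.87 for fruit. It was lower in flower than in root by -3.40 ± 0.40 and than in leaf by -3.68 ± 0.41 (log2 fold change, edgeR adjusted p = 0.00484 and 0.00363). A MADS ID without a symbol, comp13862_c0, had 30.8 and 41.9 TPM in leaf, 47.0 and 14.6 in fruit and 4.01 and 4.65 in flower, and it passed none of the flower comparisons (edgeR adjusted p = 0.241, 0.249 and 0.351 against root, leaf and fruit).

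**Figure D4:**
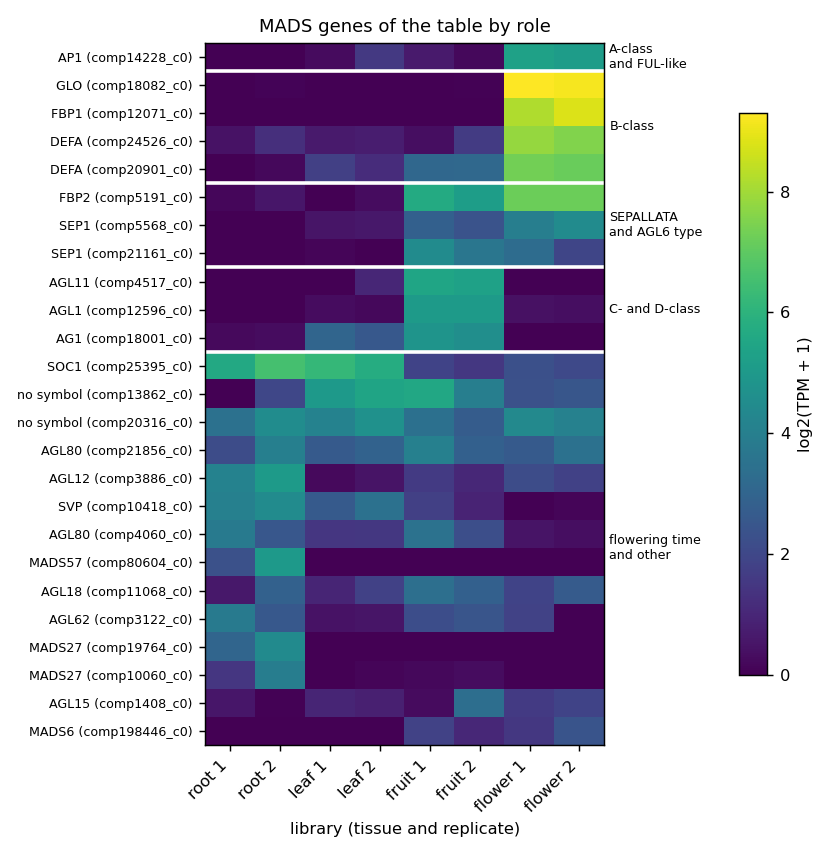
Level per length, as log2(TPM + 1), of the 25 MADS IDs in each library, grouped by role with the B-class genes second from the top. The B-class rows are bright in the flower libraries, the C- and D-class rows are bright in the fruit libraries and near 0 in flower, and SOC1 is bright in root and leaf.

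A list of 31 symbols of floral organ regulators, corepressors and stamen or petal factors matched 22 IDs under 8 symbols, and 21 were tested. Of these, flower was above root in 2 and below it in 5, and 14 did not pass (median log2 fold change -1.28, at bound -1.05, beside -0.17 and 11.2% higher and 9.39% lower over all genes). Against leaf 3 were higher and 2 lower (median -0.53, beside -0.13 and 9.32% higher and 10% lower over all genes). Against fruit 3 were higher and 3 lower (median -0.27, beside -0.16 and 8.06% higher and 6.65% lower over all genes). MYB305 (comp14131_c0), named after a floral MYB factor that activates phenylpropanoid genes in snapdragon, had 828 and 664 TPM in flower and at most 0.11 elsewhere. Its level was thus above that of GLO in both flower libraries, and it was higher in flower than in leaf and fruit by 14.07 ± 0.84 and 13.60 ± 0.82 (log2 fold change, edgeR adjusted p = 0.00258 and 0.00459). Whether it would pass the filter on low counts without the flower libraries was not checked. Its calls may therefore carry the same limit as those of GLO and FBP1. The other MYB305 ID, comp562_c0, was at 0 TPM in both flower libraries and had 15.5 and 4.38 TPM in fruit. Its difference between flower and fruit did not pass (edgeR adjusted p = 0.0891). An AP2 ID (comp7792_c0), of the type that limits C-class genes in Arabidopsis, had 18.0 and 31.1 TPM in flower, 5.39 and 12.9 in root, 6.5 and 8.51 in leaf and 25.8 and 16.0 in fruit. It was higher in flower than in root by 2.35 ± 0.39 and than in leaf by 2.20 ± 0.39 (edgeR adjusted p = 0.0112 and 0.0119), and it did not pass against fruit (0.123). Its call against root was lost in 4 of 17 alternative fits, among them both on TPM and the one without flower replicate 2 (0.0514). Its call against leaf was lost in 5, both on TPM and those without leaf replicate 1 (0.0926), leaf replicate 2 (0.11) or flower replicate 2 (0.0585). The AP2 ID comp18079_c0 had 2.82 and 7.50 TPM in flower, and the corepressor genes LUG (comp12201_c0 with 23.6 and 31.8, comp16143_c0 with 23.5 and 34.6) and SEU (comp18836_c1 with 6.81 and 7.93) did not pass against root or leaf. Of these 4, comp16143_c0 alone passed as higher in flower than in fruit (1.56 ± 0.33, edgeR adjusted p = 0.0271), a call lost in 10 of 17 alternative fits, among them those that left out any library other than root replicate 1. Other LUG IDs went the other way. In comp16805_c0, comp14417_c0 and comp8704_c0 flower was lower than root (edgeR adjusted p = 0.0381, 0.00962 and 0.0121) and than fruit (0.0447, 0.0169 and 0.0296). In comp14417_c0 flower was lower than leaf too (edgeR adjusted p = 0.0272). The LUG IDs comp28917_c0 and comp4850_c0 passed none of the flower comparisons. The PTL ID comp5651_c0 (8.33 and 7.87 TPM in flower) was higher in flower than in leaf and fruit (edgeR adjusted p = 0.0169 and 0.0224). It did not pass against root (0.384). The other PTL ID, comp5452_c0, was lower in flower than in root (edgeR adjusted p = 0.00895). ANT (comp11504_c0) was lower in flower than in root and leaf (edgeR adjusted p = 0.0118 and 0.0486). These calls were not followed in the alternative fits.

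Genes with the most similar pattern were sought by Pearson's correlation of log2 CPM over the 8 libraries, among 5781 other tested genes with a symbol and a mean of at least 10 CPM in flower. These coefficients describe the same 8 libraries, and a gene read in flower alone reaches a high value. GLO came closest to FLA14 (comp20178_c0, r = 0.9994), a fasciclin-like arabinogalactan protein by symbol, with 97.9 and 87.3 TPM in flower and at most 0.05 elsewhere. Next for GLO were the receptor-like kinase PERK8 (comp20969_c0, r = 0.9981), Csrp3 (comp16918_c0, r = 0.9975), annotated as a cysteine and glycine-rich protein, the pectate lyase At2g02720 (comp17679_c0, r = 0.9973) and At1g71691 (comp8533_c0, r = 0.9973). For FBP1 the first were At2g17690 (comp37314_c0) and Os02g0460200 (comp6955_c0), whose r rounded to 1 at 4 decimals and which had 0 TPM outside flower, followed by At1g71691 (comp8533_c0, r = 0.9999), Csrp3 (comp16918_c0, r = 0.9992) and At2g02720 (comp17679_c0, r = 0.9986). FBP1 ranked 12th of 5781 for likeness to GLO (r = 0.997), comp24526_c0 ranked 44th (r = 0.984) and DEFA ranked 1063rd (r = 0.812).

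For DEFA, the closest genes were read in all 8 libraries. They were At1g52190 (comp14025_c0, r = 0.9836) with 57.5 and 51.1 TPM in flower, 10.2 and 5.42 in fruit, 7.87 and 3.79 in leaf, and 0.29 and 1.19 in root, the copper transporter COPT5 (comp7548_c0, r = 0.9812), RTNLB8 (comp15401_c0, r = 0.9757), a reticulon-like protein by symbol, RNP1 (comp26184_c0, r = 0.9753) and At4g27120 (comp13967_c0, r = 0.9742), whose TPM was 29.6 and 28.8 in flower and 36.9 and 25.4 in fruit. None of the 5781 genes reached r = 0.99 with DEFA, whereas 27 did with GLO and 29 with FBP1. The B-class gene closest to DEFA was comp24526_c0, at rank 501 (r = 0.839).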

How the data were processed

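The authors deposited, per the file headers, estimated counts, TPM and RPKM for 30177 genes of a de novo assembly in 8 libraries; for the assembler, aligner, counter and filters, nothing is given in the sources used here. Deposited estimated counts were mostly whole (97.98% or more of a library's values within 0.005) and unnormalised. Deposited TPM gave levels per length, and deposited RPKM served only for implied lengths. Columns were matched by name, and no pair of libraries had identical counts. Rounded counts were fitted with edgeR 4.0.16 (limma 3.58.1, R 4.3.3): TMM scaling, filterByExpr by tissue (2238 genes removed), tissue as the only term, quasi-likelihood test, 4 residual degrees of freedom, common biological coefficient of variation 0.667. The lowest TMM factor was 0.582, in flower replicate 2, and the highest 1.43, in root replicate 2. DESeq2 1.42.0 was an alternative. The procedure was tried on simulated counts in which the changed genes lay well above 0 in every tissue. Genes at or near 0 outside flower, as GLO and FBP1 were, were not among those changed, so the trial does not bear on their calls. Standard errors came from the F statistic.

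The MADS list took IDs by symbol or by the word MADS in the annotation, and of each role the 2 with the highest mean TPM are named; for the organ regulators the 6 with the highest mean TPM are named. Any other gene named was chosen after its values were seen. Members and lists were chosen with earlier results of these data known. Log2 CPM used a prior count of 2. The spread behind all p-values is that between these libraries. The labels do not say whether libraries keep strand.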

Additional observations from a re-analysis of the deposited data

How the results depend on the processing

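Over 15 results of the members and up to 17 alternative settings each, 252 values were recomputed. None changed direction and 230 kept their side of the threshold. All that changed side, 21 weaker and 1 stronger, were values of DEFA. GLO and FBP1 passed the filter on low counts through the flower libraries only. A difference from flower was thus built into their being tested, and their kept calls say little about stability. GLO and FBP1 were not recomputed outside the flower comparisons. All calls of GLO and FBP1 for flower were kept, with their sizes smaller on TPM, down to 9.17 for GLO and 8.50 for FBP1 on log2(TPM + 1). For DEFA, leaving out one library gave 5.98 to 7.53 for flower against leaf, 4.36 to 5.26 for flower against fruit, 5.65 to 10.82 for fruit against root and -9.02 to -3.83 for root against leaf. With only the tissues compared in the fit, fruit against root (6.62) and root against leaf (-4.83) did not pass, and on log2(TPM + 1) root against leaf did not pass (-1.38) and fruit against leaf passed (1.65).

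Replicate numbers were not taken as pairs, since the labels tie them to nothing shared. Deviations of same-numbered libraries correlated at 0.436 (root and leaf), 0.384 (root and flower), 0.489 (leaf and flower) and 0.101 (leaf and fruit), and at -0.156 and -0.037 for fruit with root and flower. With the replicate block, DEFA in fruit against root was 6.54 and did not pass (adjusted p = 0.0588), and the genes passing were 5354, 5189 and 3840 for flower against root, leaf and fruit, beside 5744, 5398 and 4111 without it.

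Counts over all genes depended on the tool. DESeq2 passed 8625, 8133 and 7282 genes for flower against root, leaf and fruit, 3275 for fruit against root (575 with edgeR), 5634 for fruit against leaf (2694) and 6006 for root against leaf (3455). For fruit against root, limma passed 1584 on log2(TPM + 1) and 1298 on log2(TPM + 0.1). With only the tissues compared, edgeR passed 2814 for flower against root and 0 for fruit against root, where 4384 had an unadjusted p under 0.05. Leaving out one library gave 1455 to 4374 genes for flower against root, 1021 to 4994 for flower against leaf, 612 to 3655 for flower against fruit, 33 to 646 for fruit against root, 0 to 2787 for fruit against leaf, 1225 to 2743 for root against leaf and 2038 to 5490 for flower against the mean of the others (6373 with all libraries); the 0 came without leaf replicate 2, where 4754 had an unadjusted p under 0.05 in edgeR. The share of passing genes that were higher in flower than in root was 54.3%, and 23.6% on log2(TPM + 1), where the median of all genes moved from -0.17 to -0.79; against leaf it was 48.2% and 31.6%, and against fruit 54.8% and 32.8%. In edgeR with TMM replaced by total counts without TAR1-A and the 20 highest IDs, these shares were 27.9%, 38.7% and 28.1% against root, leaf and fruit. Having 2 libraries a tissue limits all of these values. For AGL11 in flower against leaf, leaving out leaf replicate 2 left no count in either tissue, and no fold is given. Flower against the mean of 3 tissues could not be fitted with only the tissues compared as a separate setting. The cause of these changes was not tested.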

Other observations

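FBP1 and GLO moved apart between the flower libraries. FBP1 was 1.55 times higher in TPM in flower replicate 2 than in replicate 1, whereas GLO was 0.911 times and DEFA 0.906 times its level there. FBP1 reads were 14.5% of the summed GLO and FBP1 counts in flower replicate 1 (Wilson 95% interval 14.1% to 14.9%) and 22.3% in replicate 2 (21.7% to 22.9%), a share that no scaling of the library changes. These intervals cover counting error within a library and not the spread between biological replicates, so the difference between the libraries was not tested. Of the 1298 IDs with a mean of at least 100 TPM in flower and counts in both libraries, 88.4% had a lower ratio of replicate 2 to replicate 1 than FBP1. Among the 8 MADS IDs with a mean of at least 10 TPM in flower, the SEP1 ID comp5568_c0 was higher in replicate 2 as well (0.54 on the log2 scale, against 0.63 for FBP1), and the other 6 were within 0.5. The share of TAR1-A reads (5.86% and 41.4%) differed between these libraries too, and its part in the difference was not tested.

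In leaf and fruit, DEFA had 99 and 37 and 240 and 291 estimated counts, and comp24526_c0 had 24 and 24 and 12 and 75. GLO had no count in leaf and 2 in fruit, and FBP1 had none in either. AG1 was read in leaf too, at 7.23 and 4.98 TPM.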
